A study of Mus musculus with 6 samples.

Results

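The miRNAs described here are those of the miR-143/miR-145 cluster and of the miR-199/miR-214 family, which are best known from smooth muscle and from fibroblast-like mesenchymal cells. All entries named miR-143, miR-145a, miR-199a, miR-199b or miR-214, with either arm, were taken by name from a table of small RNA levels in small extracellular vesicles (sEVs), and 9 of its 718 entries were found. Of these 9, 4 belong to miR-143/miR-145 (mmu-miR-143-3p, mmu-miR-143-5p, mmu-miR-145a-5p and mmu-miR-145a-3p) and 5 to miR-199/miR-214 (mmu-miR-199a-5p, mmu-miR-199a-3p, mmu-miR-199b-5p, mmu-miR-199b-3p and mmu-miR-214-3p), and the species prefix is left out from here on. The sEVs came from primary islets of wild-type mice labelled C57/B6J (C57BL/6J in the study's methods). Vesicles were collected over 48 hours of islet culture without serum, and each library was built from 5 ng of their RNA. Islets of mice on a normal chow diet (NCD) gave the nid-sEVs, and islets of mice on a high-fat diet (HFD) gave the aid-sEVs, with 3 libraries in each group. For the compensatory phase the study chose 9 weeks of HFD, in a feeding scheme that began at 8 weeks of age. The study's methods describe the replicates of its experiments in general as biological. The number of mice behind a library, and which libraries came from separate cultures, are not given in the sources used here, so p-values measure the spread between these libraries, part of which may be technical.

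A miRNA is cut from a hairpin precursor, and either arm of the hairpin, called 5p or 3p, can be kept as the mature strand of about the same length. The mature strand guides silencing complexes to messenger RNAs, mainly by its seed, which is bases 2 to 8. The hairpins of miR-143 and miR-145 lie next to each other and are made from a common transcript that serum response factor and myocardin switch on in vascular and visceral smooth muscle. The hairpins of miR-199a-2 and miR-214 lie on another common transcript, Dnm3os, which Twist1 drives in mesenchyme, and miR-199 and miR-214 are known from fibroblasts, stellate cells and fibrosis. Neither group is made in quantity by β cells. In islet preparations they are commonly attributed to stromal and vascular cells that stay attached to the islet.

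In the annotation of GRCm38, Mir143 and Mir145a lie on the same strand with 1301 bases between the hairpins. Mir199a-2 (chromosome 1, 162217814 to 162217923) and Mir214 (chromosome 1, 162223368 to 162223477) lie in exonic sequence of Dnm3os on the plus strand, 5444 bases apart, within introns of Dnm3, which runs on the minus strand. Mir199a-1 (chromosome 9, 21496495 to 21496564, minus strand) lies in an intron of Dnm2, and Mir199b (chromosome 2, 32318460 to 32318569, plus strand) lies in an intron of Dnm1. Both are on the strand opposite to their dynamin gene.

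RefSeq (GRCm38.p6) gave the mature sequence of 4 of the 9 members. They are shown because the reading of the miR-199 values depends on them. The capitals mark the seed.
miR-199a-3p: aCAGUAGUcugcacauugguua
miR-199b-3p: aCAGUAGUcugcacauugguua
miR-199a-5p: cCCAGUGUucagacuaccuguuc
miR-214-3p: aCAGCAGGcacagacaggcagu
The 22 bases of miR-199a-3p, which can come from chr9:21496498-21496519 (minus strand) or from chr1:162217883-162217904 (plus strand), are the same as the 22 bases of miR-199b-3p from chr2:32318524-32318545 (plus strand). A read of this sequence therefore does not tell miR-199a-3p from miR-199b-3p. The seeds of miR-199a-5p and miR-214-3p differ from it and from each other.

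The level of each entry was deposited as RPM (reads scaled to a common library total), and whole reads could be recovered from it. The nid-sEV libraries held 50534 to 129152 reads and the aid-sEV libraries 122266 to 519315, so most nid-sEV libraries were shallower. A level of 3 reads, taken as the smallest the depth can show, was 23.2 to 59.4 RPM in nid-sEVs and 5.78 to 24.5 RPM in aid-sEVs. These floors and all Wilson intervals cover counting error only. In nid-sEV replicate 1, 33.4% of reads belonged to entries with no miRBase name, and in the other libraries at most 9.45% did. The β cell miRNA miR-375-3p was present in every library, at 56585, 150356 and 346480 RPM in nid-sEV replicates 1, 2 and 3 and at 136424 to 163590 RPM in aid-sEVs. The nid-sEV libraries thus differed widely in the miRNA that marks the labelled tissue.

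Of the 9 members, 8 had a lower fitted level in aid-sEVs, but none passed the test across the whole table. The test was limma on log2(RPM + 1) for all 718 entries, with p-values adjusted by Benjamini-Hochberg, and an entry was called when the adjusted p was below 0.05 and the log2 fold change exceeded 1 in either direction. By this rule 0 of the 9 members were called, where 17.4% of all entries were called (15.6% higher and 1.81% lower in aid-sEVs). At an unadjusted p below 0.05, 3 of the 9 were lower in aid-sEVs (miR-145a-5p, miR-199b-5p and miR-199b-3p), as were 5.85% of all entries. With edgeR's quasi-likelihood test on the recovered reads, 1 of the 6 members tested was called, where 28.2% of entries were called (19.6% higher and 8.57% lower). With DESeq2, 2 of 7 were called, where 26.4% of entries were called (14.9% higher and 11.5% lower). These calls were of miR-199b-3p by both tools and of miR-199b-5p by DESeq2, all of them lower in aid-sEVs. The median log2 fold change was -1.49 over the 9 members, 1.11 over all entries and -0.21 over the 219 entries detected in every library. Of the 6 members detected in every library 5 had a negative log2 fold change, as had 56.2% of those 219 entries, of which limma called 14.2% in either direction.

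**Figure D1:**
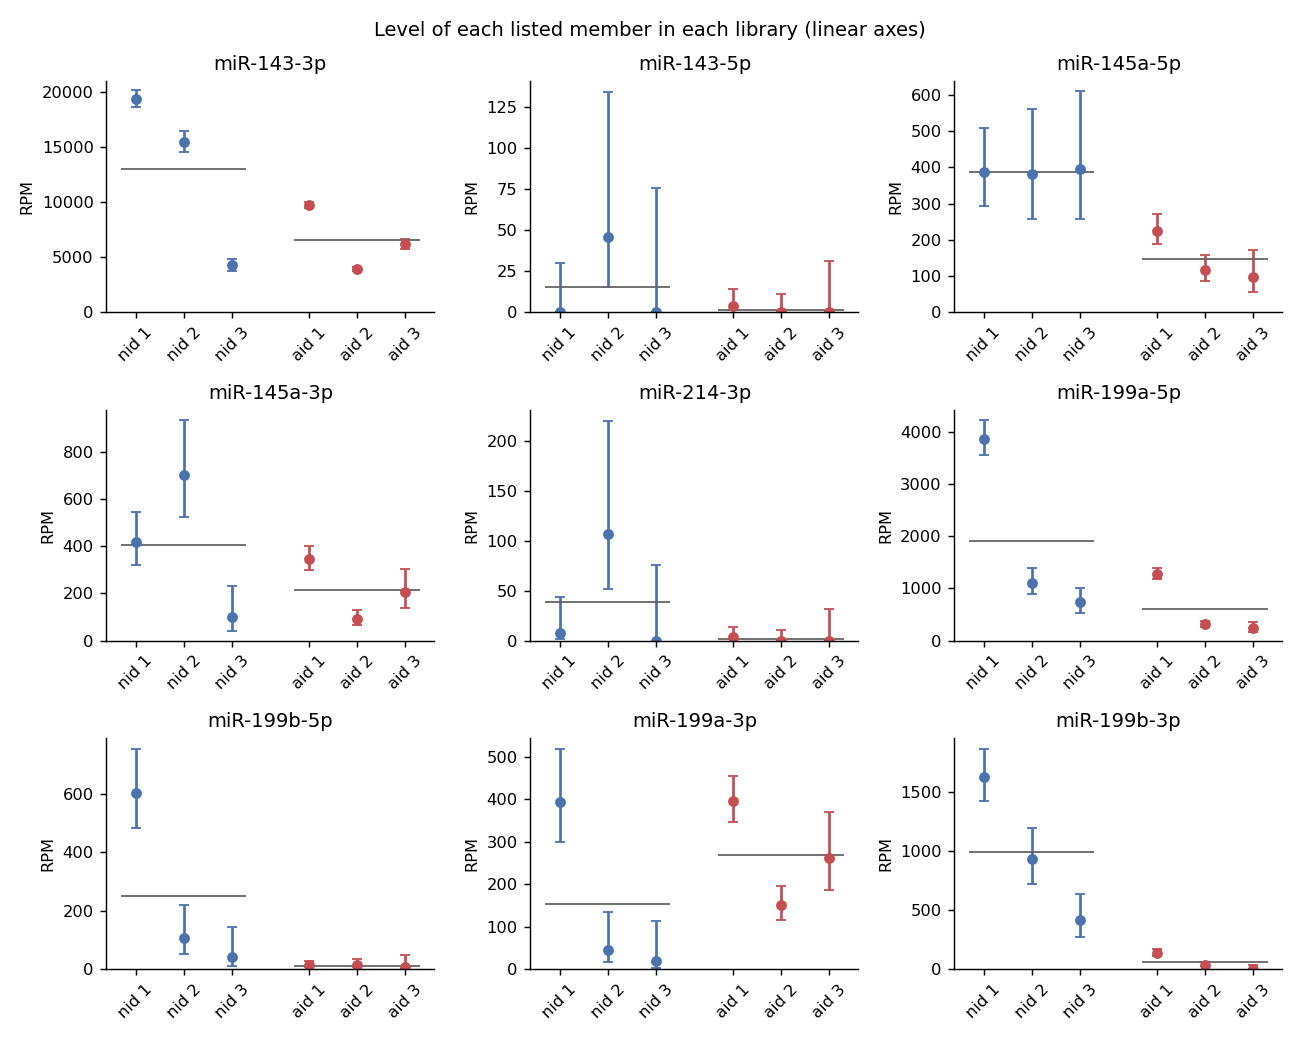
RPM of each of the 9 listed members in each of the 3 nid-sEV (blue) and 3 aid-sEV (red) libraries, on linear axes of their own, with 95% Wilson intervals as error bars and the group mean as a grey line. The aid-sEV points lie under all nid-sEV points for miR-145a-5p, miR-199b-5p and miR-199b-3p, whereas the groups overlap for the other 6 members. Over the whole table this holds for 7.52% of entries, and for 20.1% of those detected in every library.

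Among the members, miR-143-3p was the highest in 6 of 6 libraries. This arm restrains the dedifferentiation of smooth muscle cells. It had 19411, 15456 and 4235 RPM in nid-sEV replicates 1, 2 and 3 and 9715, 3904 and 6151 RPM in aid-sEV replicates 1, 2 and 3. The groups overlapped, since nid-sEV replicate 3 lay below 2 of the aid-sEV libraries. Its mean was 13034 ± 7873 RPM (SD, n = 3) in nid-sEVs and 6590 ± 2930 RPM in aid-sEVs. By limma it differed by -0.82 on the log2 scale (SE 0.67, adjusted p = 0.45), which did not exceed the spread between libraries. The value ran from -1.49 without nid-sEV replicate 3 to -0.39 without nid-sEV replicate 1. The spread in nid-sEVs was wider than counting error, since the 95% Wilson interval of nid-sEV replicate 1 (18673 to 20178 RPM) lay far above that of nid-sEV replicate 3 (3705 to 4840 RPM). The other arm, miR-143-5p, was read 0, 3 and 0 times in nid-sEVs, and 2, 0 and 0 times in aid-sEVs. These are at or under the floor of 3 reads in every library, so no fold change is given.

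The partner of miR-143 on the shared transcript, miR-145a, was lower by more than an order of magnitude in most libraries and appeared with both arms. The 5p arm, which represses Klf4 and Klf5 in smooth muscle, had 387, 381 and 396 RPM in nid-sEV replicates 1, 2 and 3 and 225, 116 and 98.1 RPM in aid-sEV replicates 1, 2 and 3. All aid-sEV libraries lay below all nid-sEV libraries, as did those of 7.52% of all entries and of 20.1% of the entries detected in every library. The mean of miR-145a-5p was 388 ± 7.57 RPM in nid-sEVs and 147 ± 68.8 RPM in aid-sEVs, which limma fitted as -1.49 on the log2 scale with an SE of 0.54 and an adjusted p of 0.13. The nid-sEV values lay closer to each other than their counting intervals, which ran from 256 to 611 RPM in replicate 3 with 20 reads. The 3p arm had 418, 700.5 and 98.9 RPM in nid-sEVs and 345, 90.8 and 204 RPM in aid-sEVs, and the groups overlapped. limma gave this arm -0.72 on the log2 scale, with an SE of 0.92 and an adjusted p of 0.65. Leaving out 1 library moved it between -1.54 (without nid-sEV replicate 3) and -0.13 (without nid-sEV replicate 2).

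Within the cluster, miR-143-3p carried 89.5% to 96.0% of the summed RPM in every library. The ratio of miR-143 to miR-145a was 24.1, 14.3 and 8.56 in nid-sEV replicates 1, 2 and 3 and 17.1, 18.8 and 20.3 in aid-sEVs. The aid-sEV ratios fell inside the nid-sEV range (two-sided exact permutation test of the log2 ratio, p = 0.60, Benjamini-Hochberg adjusted p = 0.84 over the 6 ratios compared). The share of miR-145a reads on the 5p arm was 48.1%, 35.2% and 80.0% in nid-sEVs and 39.5%, 56.2% and 32.4% in aid-sEVs, with no separation of the groups (exact permutation p = 0.60). The 80.0% of nid-sEV replicate 3 came from 20 of 25 reads, with a 95% Wilson interval of 60.9% to 91.1%. Without that library the difference in this share was 1.06 percentage points, with the opposite sign to the -11.7 percentage points of all libraries.

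In the miR-199/miR-214 family, miR-199a-5p was the leading arm and the next member after miR-143-3p in 5 of 6 libraries. This arm is known from stellate cells and lung fibroblasts, where it is associated with fibrosis. It had 3879, 1112 and 732 RPM in nid-sEV replicates 1, 2 and 3 (501, 73 and 37 reads) and 1282, 309 and 245 RPM in aid-sEV replicates 1, 2 and 3 (666, 109 and 30 reads). Only aid-sEV replicate 1 reached into the nid-sEV range. The means were 1908 ± 1718 and 612 ± 581 RPM, and the fitted difference on the log2 scale was -1.67 (limma, adjusted p = 0.26, SE 0.90).

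The 5p arm of miR-199b was rare in aid-sEVs, with 7, 5 and 1 reads (13.5, 14.2 and 8.18 RPM). In nid-sEVs it had 78, 7 and 2 reads (604, 107 and 39.6 RPM), so most of its nid-sEV reads came from replicate 1. The groups did not overlap, and limma fitted -3.45 on the log2 scale (SE 1.12, adjusted p = 0.093), whereas the adjusted p of DESeq2 was 0.0026. The filter of edgeR on low counts left it out. In the listed 5p reads of the miR-199 family, miR-199b-5p made up 13.5%, 8.75% and 5.13% in nid-sEVs and 1.04%, 4.39% and 3.23% in aid-sEVs (exact permutation p = 0.10, the smallest that 3 against 3 allow).

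The 3p entries of miR-199a and miR-199b had fitted differences of opposite sign, although their mature sequences printed above are identical. The entry miR-199b-3p had 1626, 929 and 416 RPM in nid-sEV replicates 1, 2 and 3 and 135, 36.9 and 0 RPM in aid-sEV replicates 1, 2 and 3. Every aid-sEV library was below every nid-sEV library, as for 7.52% of all entries. The log2 fold change fitted by limma was -5.63 (SE 1.83). Its adjusted p was 0.093 in limma, 0.040 in edgeR's quasi-likelihood test and 0.0034 in DESeq2. The 0 of aid-sEV replicate 3 enters this value through the added 1, and limma gave -4.41 with a pseudocount of 10 (adjusted p = 0.044), -6.75 with a pseudocount of 0.1 (adjusted p = 0.20) and -3.58 without that library (adjusted p = 0.069). The entry miR-199a-3p had 395, 45.7 and 19.8 RPM in nid-sEVs and 397, 150.5 and 262 RPM in aid-sEVs. Here nid-sEV replicate 1 was as high as aid-sEV replicate 1, and the other nid-sEV libraries were at 3 and 1 reads. For miR-199a-3p limma gave 1.79 on the log2 scale (SE 1.18, adjusted p = 0.34), and leaving out 1 library moved it between 0.89 (without nid-sEV replicate 3, adjusted p = 0.58) and 3.01 (without nid-sEV replicate 1, adjusted p = 0.042). On the recovered reads it was 0.48 by edgeR (adjusted p = 0.75) and 0.73 by DESeq2 (adjusted p = 0.67).

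Of the reads with this shared 3p sequence, the share listed under miR-199b-3p was 80.5%, 95.3% and 95.5% in nid-sEV replicates 1, 2 and 3. In aid-sEV replicates 1, 2 and 3 it was 25.4%, 19.7% and 0%. The closest libraries were nid-sEV replicate 1, with 210 of 261 reads (95% Wilson interval 75.2% to 84.8%), and aid-sEV replicate 1, with 70 of 276 reads (20.6% to 30.8%). The difference between the groups was -75.4 percentage points (p = 0.10 by a two-sided exact permutation, which is the lowest value possible with 3 libraries each, and adjusted p = 0.20 over 6 shares). In aid-sEV replicate 3 the 0 of 32 reads allows a share of up to 10.7% by the Wilson interval. How the submitters' pipeline divided reads between names with the same sequence is not given in the sources used here.

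**Figure D2:**
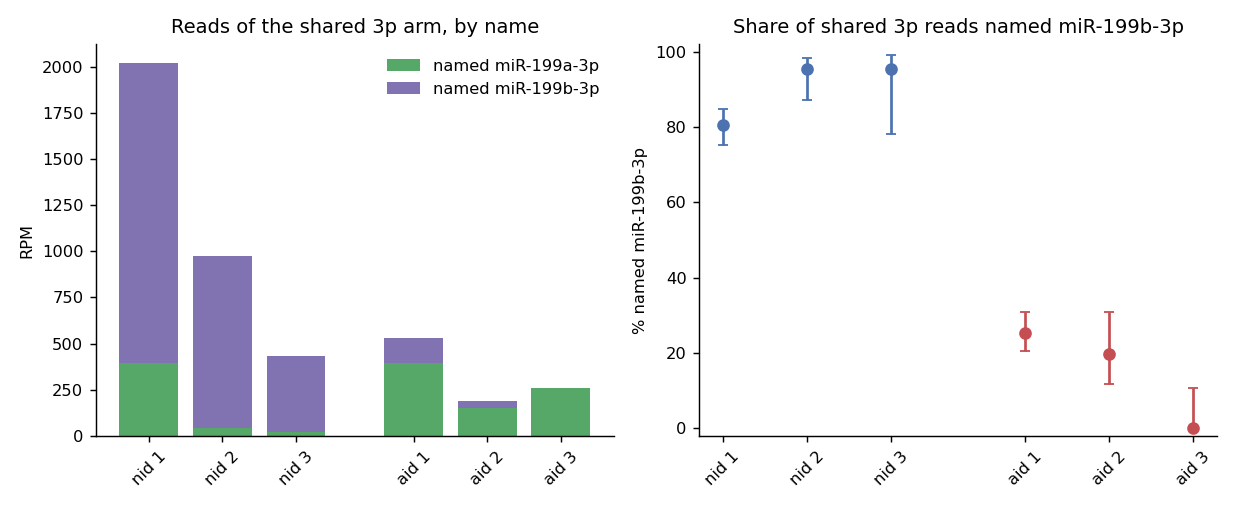
Left, RPM of the shared miR-199 3p sequence in each library, stacked by the name under which it is listed, and right, the percentage of those reads listed as miR-199b-3p with 95% Wilson intervals. The nid-sEV libraries list 80.5% to 95.5% of the reads as miR-199b-3p and the aid-sEV libraries 0% to 25.4%.

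When both names were added, the 3p sequence had 2021, 975 and 435 RPM in nid-sEVs and 531, 187 and 262 RPM in aid-sEVs. The aid-sEV libraries were lower, except that replicate 1 lay above nid-sEV replicate 3. Fitted as a single entry, the sum differed by -1.68 on the log2 scale in limma (SE 0.73). Its adjusted p was 0.21 there and 0.13 in edgeR's quasi-likelihood test. The -1.68 of the sum is close to the -1.67 of miR-199a-5p and to the log2 difference of -1.77 of the summed miR-199 5p arms. The separate 3p entries gave -5.63 and 1.79. The 5p arm of miR-199b alone, with few reads, had -3.45, so the difference under the miR-199b name was not limited to the 3p arm. The edgeR fit with the names added also had another median over the tested entries (0.26 against -0.02 with the names apart), so its values are not on the same centre as those of the separate entries. DESeq2 was not run on the sum. Adding the names was decided after the values were seen.

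The arm shares of miR-199a also depended on the naming. From miR-199a alone, the 5p arm took 90.8%, 96.1% and 97.4% of the reads in nid-sEVs and 76.4%, 67.3% and 48.4% in aid-sEVs, without overlap of the groups (exact permutation p = 0.10, the smallest possible). With miR-199a and miR-199b added, it took 68.9%, 55.6% and 63.9% in nid-sEVs and 70.9%, 63.3% and 49.2% in aid-sEVs (exact permutation p = 0.90). The summed share differed by -1.65 percentage points, and its sign turned without nid-sEV replicate 1 (1.41) or without aid-sEV replicate 3 (4.32).

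The remaining member, miR-214-3p, which shares the Dnm3os transcript with miR-199a-2, was near the limit of the depth. Its reads numbered 1, 7 and 0 in nid-sEV replicates 1, 2 and 3, against 2, 0 and 0 in aid-sEV replicates 1, 2 and 3. A single library, nid-sEV replicate 2, exceeded 3 reads, so a difference was not detectable at this depth. In nid-sEV replicate 1 its 1 read stood beside 501 reads of miR-199a-5p, and in aid-sEV replicate 1 its 2 reads stood beside 666. In nid-sEV replicate 2 its 7 reads stood beside 73, so the relation of these arms differed between libraries.

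**Figure D3:**
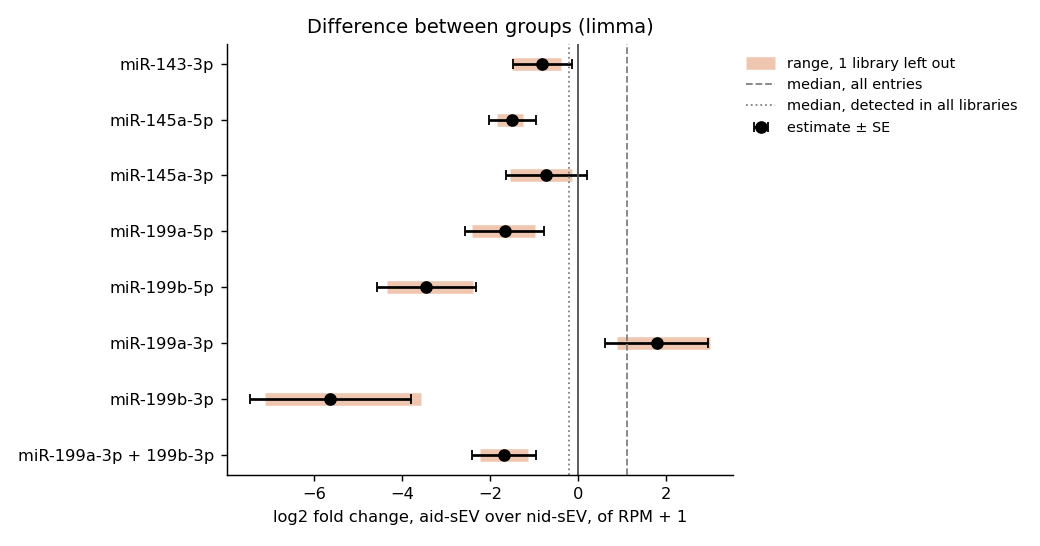
Log2 fold change of RPM + 1, aid-sEV over nid-sEV, by limma for the 7 members with over 3 reads in at least 4 libraries and for the summed miR-199 3p sequence, with SE bars and, in orange, the range over fits that each drop 1 library. The 3p names sit at -5.63 and 1.79 and their sum at -1.68, and the vertical lines mark the medians of all entries (1.11) and of the entries detected in all libraries (-0.21).

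The smooth muscle and the fibroblast group were then compared as sums. The summed miR-143/miR-145 entries had 20216, 16583 and 4729 RPM in nid-sEV replicates 1, 2 and 3 and 10289, 4111 and 6453 RPM in aid-sEV replicates 1, 2 and 3. The summed miR-199/miR-214 entries had 6512, 2299 and 1207 RPM in nid-sEVs and 1831, 511 and 515 RPM in aid-sEVs. In both sums nid-sEV replicate 1 was the highest library, and in both the groups overlapped. For miR-143/miR-145, aid-sEV replicates 1 and 3 lay above nid-sEV replicate 3, and for miR-199/miR-214 only aid-sEV replicate 1 did. The mean of miR-143/miR-145 was 13843 ± 8099 RPM in nid-sEVs and 6951 ± 3119 RPM in aid-sEVs (SD, n = 3 each), a ratio of 0.50, and the mean difference of the log2 sums was -0.85 (two-sided exact permutation test, p = 0.30). The mean of miR-199/miR-214 was 3339 ± 2801 and 953 ± 761 RPM, a ratio of 0.29, with a log2 difference of -1.74 (exact permutation p = 0.20). Neither difference exceeded the spread between libraries, and an exact test of 3 libraries against 3 cannot go below p = 0.10.

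In every library the miR-143/miR-145 sum was above the miR-199/miR-214 sum. The ratio of the sums was 3.10, 7.21 and 3.92 in nid-sEV replicates 1, 2 and 3 and 5.62, 8.04 and 12.5 in aid-sEV replicates 1, 2 and 3. The mean log2 ratio was 2.15 ± 0.63 in nid-sEVs and 3.05 ± 0.58 in aid-sEVs. The difference of 0.90 was not separable from the spread (two-sided exact permutation test, p = 0.20, adjusted p = 0.60 over 6 ratios). This ratio is taken within a library and so does not depend on the scaling of the libraries. Both 3p names are in the miR-199/miR-214 sum, so the division of reads between them leaves it as it is. Without the miR-199b-3p entry, which held most of the shared 3p reads in nid-sEVs, the difference was 0.38 (exact permutation p = 0.40). With the arms that had been planned as the most abundant (miR-143-3p and miR-145a-5p over miR-199a-3p and miR-214-3p), its sign turned to -2.06 (exact permutation p = 0.10), and the difference of the miR-199/miR-214 sum turned to 1.21 (exact permutation p = 0.70). With miR-143-3p alone set over the summed miR-199 3p arms, the ratios were 9.61, 15.9 and 9.73 in nid-sEVs and 18.3, 20.8 and 23.5 in aid-sEVs, which did not overlap (exact permutation p = 0.10, adjusted p = 0.60). Over the summed miR-199 5p arms they were 4.33, 12.7 and 5.49 against 7.50, 12.1 and 24.3, which overlapped (exact permutation p = 0.30). Between nid-sEV replicate 1 and aid-sEV replicate 3, whose depths were alike, the ratio of the cluster sums was 3.10 in the former and 12.5 in the latter. These are the lowest nid-sEV ratio and the highest aid-sEV ratio, so this pair of single libraries gives the widest contrast in the data. The miR-199/miR-214 sum of aid-sEV replicate 3 rested on 63 reads.

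**Figure D4:**
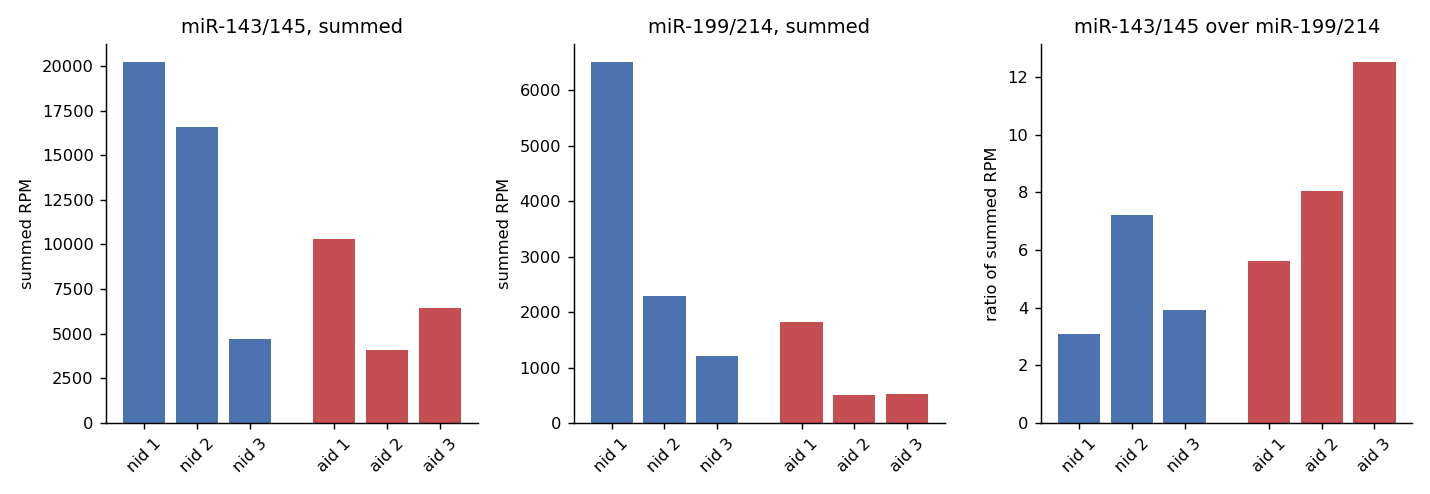
Summed RPM of the 4 miR-143/miR-145 entries (left) and of the 5 miR-199/miR-214 entries (middle) in each library, and the ratio of these sums (right), with nid-sEV libraries in blue and aid-sEV libraries in red and each axis starting at 0. Both sums span a wide range within nid-sEVs, and the ratio runs from 3.10 to 7.21 in nid-sEVs and from 5.62 to 12.5 in aid-sEVs.

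The sums of both clusters followed each other over the 6 libraries, with Pearson's r = 0.88 on the log2 scale. This correlation is a description over libraries that share the scaling to a fixed total. Among the 172 other miRBase-named entries detected in every library, those most alike to the miR-143/miR-145 sum were miR-126a-5p (r = 0.94), miR-136-3p (0.93), miR-802-5p (0.93), miR-144-3p (0.93) and miR-99a-5p (0.92). Those most alike to the miR-199/miR-214 sum were miR-126a-3p (r = 0.99), miR-144-3p (0.97), miR-126a-5p (0.94), miR-451a (0.93) and miR-216a-5p (0.91). The endothelial miR-126a-3p had 1951, 1066 and 633 RPM in nid-sEV replicates 1, 2 and 3 and 797, 437 and 491 RPM in aid-sEV replicates 1, 2 and 3, which put nid-sEV replicate 1 at the top as in the miR-199/miR-214 sum. This was not particular to the endothelial arm. The blood cell miR-144-3p and miR-451a were also highest in nid-sEV replicate 1 (1370 and 666 RPM), as was the acinar miR-216a-5p (2362 RPM).

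A list of 20 further miRNAs known from mesenchymal cells was followed beside the members. Of these, 17 were listed, 1 was called lower and 0 were called higher, where 1.81% of all entries were called lower. The median log2 fold change of the 17 was -0.49. Of the 17, 10 had a negative value, as had 34.5% of all entries and 56.2% of those detected in every library. The called miRNA was miR-224-5p (limma adjusted p = 0.024), whose reads numbered 16, 2 and 3 in nid-sEVs but 0, 1 and 0 in aid-sEVs, at which depth the size of a fold depends on the pseudocount. The largest of the list by RPM, miR-27b-3p, had means of 37010 ± 14866 and 25964 ± 6156 RPM in nid-sEVs and aid-sEVs (log2 fold change -0.47, adjusted p = 0.42 by limma). The values of miR-100-5p were 6692 ± 3604 and 2131 ± 594 RPM (-1.56, adjusted p = 0.090 by limma), and those of miR-10b-5p were 10456 ± 5360 and 3526 ± 940 RPM (-1.43, adjusted p = 0.15 by limma). Others of the list had a higher fitted level in aid-sEVs. Among them limma gave 0.70 for miR-21a-5p (adjusted p = 0.59) and 0.94 for miR-140-3p (adjusted p = 0.53). It gave 1.27 for miR-130a-3p (adjusted p = 0.39) and 2.90 for miR-497a-5p (adjusted p = 0.22). The summed list had 52658 to 108282 RPM in nid-sEVs and 36676 to 56511 RPM in aid-sEVs, with overlap.

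Lists of markers of other cells were read beside the members. Over all entries, 1.81% were called lower and 15.6% higher. Every aid-sEV library was below every nid-sEV library for 7.52% of all entries and for 20.1% of those detected in every library. These shares are of single entries, and none was computed for summed lists. Of 7 blood cell miRNAs, 2 (miR-486a-5p and miR-150-5p) were called lower, and the list summed to 4523 to 9198 RPM in nid-sEVs and 400.3 to 1544 RPM in aid-sEVs, without overlap. The summed endothelial arms of miR-126a had 989 to 3717 and 679 to 1325 RPM, with 0 of 2 called. The 3 acinar miRNAs (miR-216a-5p, miR-216b-5p and miR-217-5p) had 2533 to 8997 and 698 to 3370 RPM, with 0 called. Of 5 epithelial miRNAs 2 (miR-200b-3p and miR-200c-3p) were called lower, and the list had 5679 to 10233 and 1962 to 4171 RPM, also without overlap. Of 6 striated muscle miRNAs 3 were listed and 0 called, at 0 to 240 RPM in nid-sEVs and 11.6 to 28.4 RPM in aid-sEVs. The 3 endocrine miRNAs summed to 73913 to 357997 RPM in nid-sEVs and 161566 to 184327 RPM in aid-sEVs, with 1 called higher (miR-7b-5p). Nid-sEV replicate 1, the highest library for both member sums, had the lowest endocrine sum, and nid-sEV replicate 3, the lowest nid-sEV library for both, had the highest. This order was that of miR-375-3p, which made up most of the endocrine sum. In nid-sEV replicates 1, 2 and 3 miR-7a-5p ran the other way (13395, 11679 and 7777 RPM), and miR-7b-5p changed little (3933, 3578 and 3740 RPM). All these levels share the scaling to a fixed total. The part of these other cells in the levels of the members was not tested, and in bulk vesicle RNA fewer cells of a type and less miRNA released per cell cannot be told apart.

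**Figure D5:**
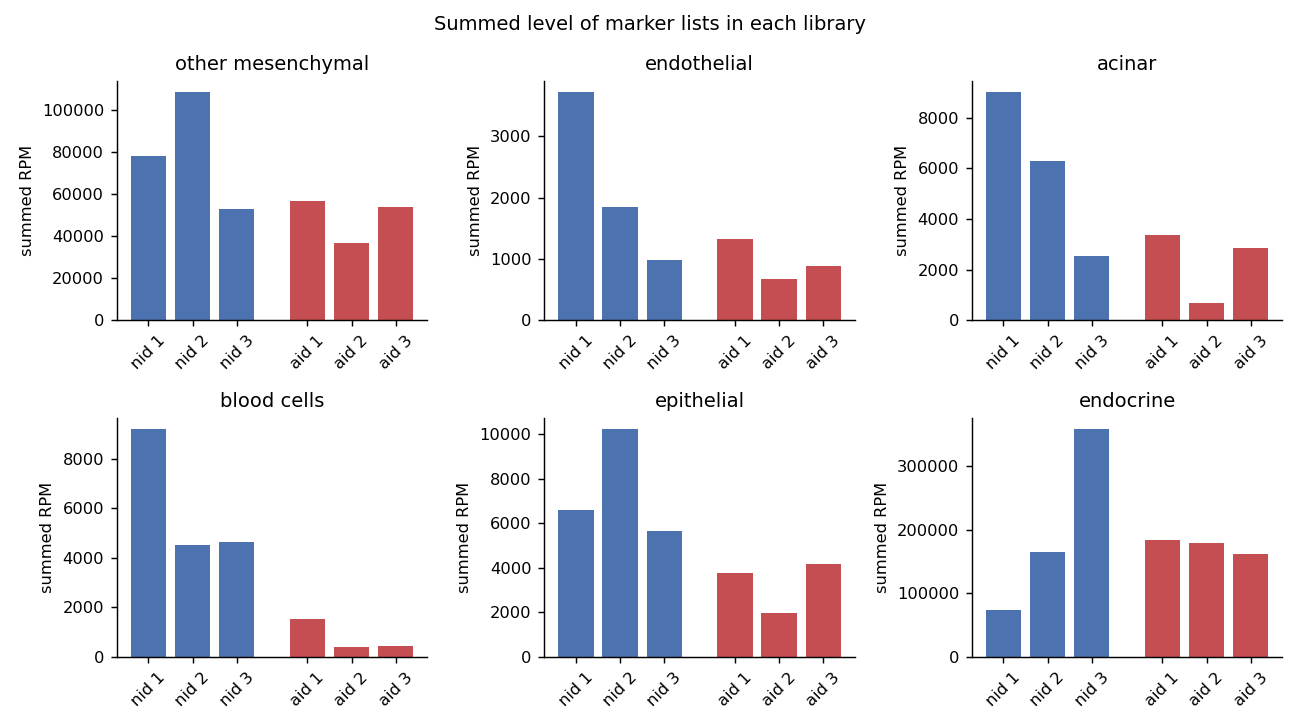
Summed RPM of 6 marker lists in each library (nid-sEV in blue, aid-sEV in red), each axis starting at 0. The blood cell list runs from 4523 to 9198 RPM in nid-sEVs and from 400.3 to 1544 RPM in aid-sEVs, and the endocrine list spans 73913 to 357997 RPM within nid-sEVs.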

How the data were processed

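Small RNA libraries of sEVs from cultured islets (3 nid-sEV, 3 aid-sEV) were sequenced by a company. The authors deposited RPM for 718 entries in each library. Per the labels, fastp 0.23.0, HISAT2 2.2.1 and GRCm38 were named in the submitters' processing notes with no stated role, and the counter and miRNA reference are not given in the sources used here. The deposited table also holds the authors' comparison (a log2 fold change, a log2 abundance, a p-value and an FDR), which was not used. Division by the smallest value above 0 in each library, taken as 1 read, gave whole reads for 100% of values (tolerance 0.01 reads), on which edgeR 4.0.16 and DESeq2 1.42.0 were run as alternatives, with 245 entries passing edgeR's filter. The planned test was limma 3.58.1 with trend in R 4.3.3 on log2(RPM + 1), adjusted over all entries. It was also run on simulated reads with the same spread for every entry and group. That run, whose outcome is not given here, cannot show how the test performs on libraries as uneven as these. Sums, ratios and arm shares were compared by two-sided exact permutation tests. Intervals are 95% Wilson intervals of counting error. Fold changes on the log2(RPM + 1) scale understate or overstate changes of low entries. All members were named, with the 5 entries most alike to each cluster sum and the called entries of the marker lists. Members and lists were chosen with earlier results of these data known. Positions come from GENCODE M21 (GRCm38). Alternatives were other pseudocounts, a low-value filter, other scalings, thinning, a replicate block and each library left out.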

Additional observations from a re-analysis of the deposited data

How the results depend on the processing

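The 7 members with over 3 reads in at least 4 libraries kept their direction in 104 values under the alternatives, and 5 of these values passed the threshold. They were miR-199b-3p with a pseudocount of 10, edgeR and DESeq2, miR-199b-5p with DESeq2, and miR-199a-3p without nid-sEV replicate 1. With the arms planned as most abundant (miR-199a-3p and miR-214-3p) the miR-199/miR-214 difference reversed to 1.21 and the ratio of clusters to -2.06, because this sum leaves out miR-199b-3p and miR-199a-5p by its construction. With each library left out, the log2 difference of miR-143/miR-145 ran from -1.50 to -0.45, that of miR-199/miR-214 from -2.35 to -1.09, and that of the ratio from 0.60 to 1.24. The 5p share of miR-145a ran from -21.3 to 1.06 percentage points and that of summed miR-199 from -6.54 to 4.32. RPM divided by TMM factors gave -0.35 for miR-143/miR-145 and -1.24 for miR-199/miR-214, and moved the median of all entries from 1.11 to 1.43.

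The calls over all entries, 112 higher and 13 lower, depended on the setting, and the cause was not tested. A pseudocount of 10 gave 62 higher, a filter on a mean RPM of 10 gave 69 (from fewer entries), edgeR 48 and 21, DESeq2 65 and 50, and thinned reads 56 and 5. A pseudocount of 0.1 gave 8 lower, and TMM factors gave 3. Leaving out a library gave 33 to 150 higher and 1 to 26 lower. edgeR with the miR-199 3p names added gave 53 and 10. The replicate number as a block gave 0 and 0. Same-numbered libraries correlated at -0.053, 0.058 and -0.051 in their deviations from the group means. Libraries with different numbers correlated at -0.12 to 0.14. Same-numbered libraries were thus no more alike than others. No pairing is stated in the sources used here, and such correlations cannot show whether same-numbered libraries shared a culture or a run. With the block, the exact sign-flip p for the ratio was 0.25, the smallest that 3 pairs allow.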

Other observations

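Among the 424 listed names with a mature sequence in the RefSeq table, 3 groups of names shared their whole sequence, and in none of them did the names have the same reads in every library. Besides miR-199a-3p and miR-199b-3p these were let-7a-1-3p with let-7c-2-3p, and miR-465a-3p with miR-465b-3p and miR-465c-3p. Of the let-7 pair, let-7a-1-3p held 0%, 100% and 100% of the reads in nid-sEV replicates 1, 2 and 3 and 0%, 70.0% and 0% in aid-sEV replicates 1, 2 and 3. The naming of this pair thus differed between libraries of the same group. The pair was low in nid-sEVs, with means of 65.5 RPM for let-7a-1-3p and 10.3 RPM for let-7c-2-3p. A level of 3 reads was 23.2 to 59.4 RPM there, so these nid-sEV shares rest on few reads.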
